A study of Mus musculus with 32 samples.

Results

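The genes described here are 33 genes of protein folding in the endoplasmic reticulum (ER) and of its stress signalling, the unfolded protein response (UPR). They are a named list of pathway genes, drawn up with earlier results of these data known, and were found by symbol among the 35523 genes counted in mouse liver. They comprise 5 luminal and membrane chaperones, 4 protein disulfide isomerases, 3 HSP40 cochaperones, 3 small secreted or luminal proteins, 6 sensors and transcription factors, 7 genes of ER-associated degradation (ERAD) and translocation, and 5 targets of the PERK and ATF4 branch. All 33 were tested in the model of all 32 livers, and 31 to 33 were tested in each pair of groups, since Asns and Derl3 had too few counts in some of them.

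Liver mRNA was sequenced from 32 mice, 4 in each of 8 groups formed by genotype, sex and diet. The Nudt7-/- mice (KO) lack exons 3 and 4 of Nudt7, the gene of a peroxisomal CoA-degrading enzyme, in the whole body, and their controls (WT) were littermates. All KO mice descended from 1 mosaic founder made in FVB zygotes, which was bred onto C57BL/6J for 6 generations. A Western diet (WD), in which fat gave 41% of the energy and cholesterol made up 0.2%, or a low-fat control diet (CD), with 10% of the energy as fat and 0% cholesterol, was given to females and males of both genotypes from 6 weeks of age until harvest at 17 to 20 weeks. The study harvested mice both in the fed state and after a fast, and the labels do not say which state these livers were taken in.

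Libraries held 10140048 to 15825078 counts assigned to transcripts. Nudt7 had 21.2 to 249 CPM (counts scaled to a common library total) in KO livers and 96.1 to 656 CPM in WT livers, and within each sex and diet every KO liver lay below every WT liver. All 8 hepatocyte marker genes were detected, with a summed level of 45553 to 82069 CPM on the WD against 67953 to 99175 CPM on the CD. Transcripts of 16 pancreatic acinar genes stood above 500 CPM in 4 libraries, all from females (WT on the CD replicates 2 and 4, KO on the CD replicate 3 and WT on the WD replicate 4), at 538 to 7244 CPM against at most 141 CPM elsewhere. Acinar cells are rich in ER chaperones, so the main counts are also given without these 4 libraries. In bulk tissue, fewer cells of a type and less RNA per cell cannot be told apart.

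Proteins that enter the secretory pathway fold in the ER lumen with the help of chaperones of the HSP70 and HSP90 families, the lectins calnexin and calreticulin, and disulfide isomerases. When unfolded proteins accumulate, the sensors IRE1 (Ern1), PERK (Eif2ak3) and ATF6 are activated. IRE1 splices Xbp1 mRNA in the cytosol, PERK slows translation while favouring that of ATF4, and ATF6 is cut in the Golgi to release a transcription factor. Hepatocytes secrete most plasma proteins and so keep a large folding capacity at rest, and they also carry the liver-enriched ER membrane factor CREBH (Creb3l3), which acts on genes of lipid metabolism and the acute phase.

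ATF6 and XBP1 act on many of these genes through the ER stress response element (ERSE, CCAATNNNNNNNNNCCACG), so the proximal promoters were searched for it. RefSeq promoter windows (GRCm38.p6, 250 bases before to 50 after the start) were found for 29 of the 33 genes, in 30 windows. On either strand, ERSE stood in 9 of these 30 windows (Calr, Canx, Creld2, Derl3, Dnajc3, Hsp90b1, Hspa5, Pdia6 and Syvn1), which is 30% of them, against 39 of 32851 windows (0.119%) over all genes. The related ERSE-II (ATTGGNCCACG) stood in the windows of Dnajb11 and Herpud1, against 0.0365% of all windows. The UPRE core TGACGTGG was in 0 of the 30 (0.676% of all), the cyclic AMP element TGACGTCA was in that of Ppp1r15a (1.79% of all), and the C/EBP-ATF element TTGCATCA in those of Chac1 and Herpud1 (0.895% of all). CCACG, one of the fixed parts of ERSE and thus contained in it and in ERSE-II, was in 76.7% of these windows and 32.8% of all. Many genes of this list are known to be regulated through ERSE, so its higher share here is no independent finding. A match describes the letters of the window and does not show binding.

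The stretches with ERSE or ERSE-II are shown for 8 of these genes whose values are given below, on the gene's strand from 5′ to 3′. Capitals mark the fixed letters of a motif (CCAAT with CCACG, or ATTGG with CGTGG where it lies on the other strand), and in Herpud1 they mark TTGCATCA and ERSE-II. The positions are chr2:34772010-34772058 for Hspa5 on the plus strand, −80 to −32 bases from its start, chr10:86705518-86705671 for Hsp90b1 on the minus strand, chr8:84847060-84847108 for Calr on the minus strand and chr11:50325785-50325833 for Canx on the minus strand. Those on the plus strand are chr14:118937812-118937860 for Dnajc3, chr15:88819505-88819553 for Creld2, chr19:6046517-6046565 for Syvn1 and chr8:94386302-94386402 for Herpud1.
Hspa5: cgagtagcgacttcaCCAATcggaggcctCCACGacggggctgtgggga
Hsp90b1: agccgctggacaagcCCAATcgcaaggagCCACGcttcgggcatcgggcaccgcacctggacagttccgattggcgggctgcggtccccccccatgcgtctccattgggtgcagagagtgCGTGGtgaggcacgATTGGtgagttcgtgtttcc
Calr: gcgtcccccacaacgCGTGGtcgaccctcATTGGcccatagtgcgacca
Canx: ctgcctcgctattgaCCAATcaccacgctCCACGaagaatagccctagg
Dnajc3: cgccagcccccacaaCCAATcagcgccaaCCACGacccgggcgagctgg
Creld2: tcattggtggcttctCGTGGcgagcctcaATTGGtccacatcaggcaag
Syvn1: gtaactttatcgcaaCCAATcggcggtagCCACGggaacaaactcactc
Herpud1: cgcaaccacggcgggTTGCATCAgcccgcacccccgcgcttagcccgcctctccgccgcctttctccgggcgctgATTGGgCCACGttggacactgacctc
The Hsp90b1 stretch holds an ERSE in each orientation, and the other ERSE stretches shown hold a single copy.

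Per length, the folding machinery dominated the list. The most abundant transcript was P4hb, the beta subunit of prolyl 4-hydroxylase and itself a disulfide isomerase, with a mean of 565 TPM (transcripts scaled to length and to a common library total). It was followed by Hspa5 (BiP, the central HSP70 chaperone of the ER) at 487 TPM, Calr (calreticulin) at 392 TPM, Hsp90b1 (GRP94) at 367 TPM and Pdia3 (ERp57, the partner of the lectin chaperones) at 199 TPM. Of the regulators, Xbp1 had a mean of 124 TPM, Creb3l3 124 TPM and Atf4 72.9 TPM, whereas the sensors Ern1, Atf6 and Eif2ak3 had 22.5, 15.6 and 6.83 TPM. The stress targets were scarce, with mean levels of 10.4 TPM for Ddit3 (CHOP), 4.97 TPM for Ppp1r15a (GADD34), 3.56 TPM for Trib3, 2.26 TPM for Chac1 and 0.605 TPM for Asns. Asns had only 2 to 31 counts in a library and Derl3 0 to 74, so both are measured poorly at this depth.

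**Figure D1:**
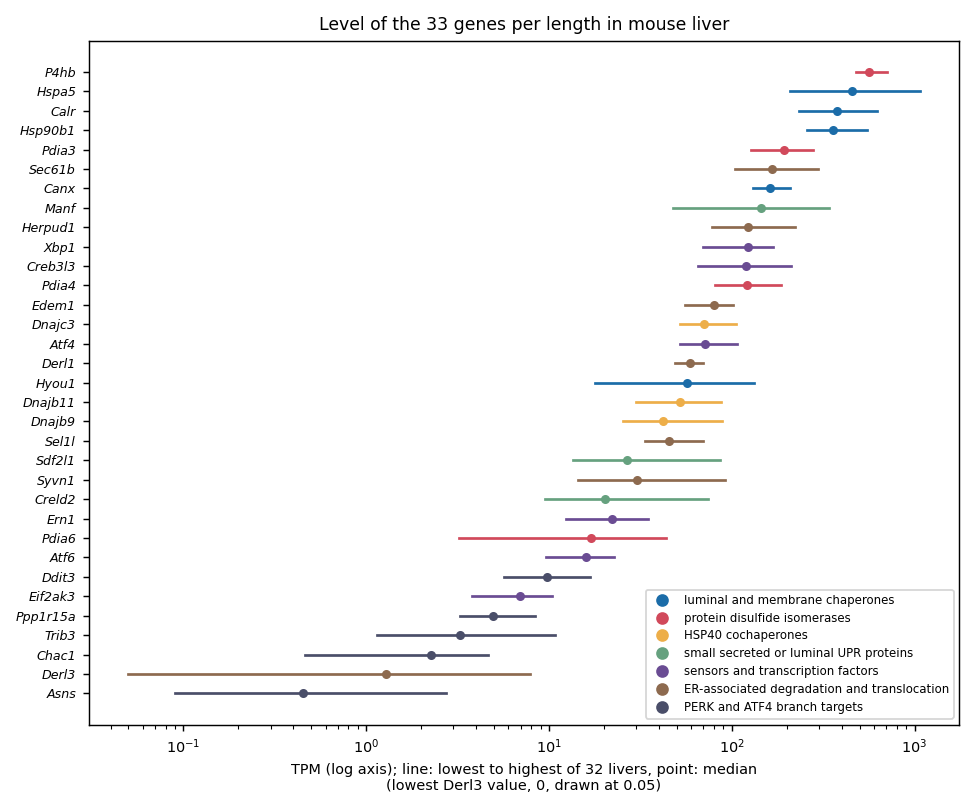
Level of each of the 33 genes in TPM on a log axis, with the lowest to the highest of 32 livers as a line and the median as a point, coloured by role. The chaperones and disulfide isomerases lie mostly at the top and the PERK and ATF4 branch targets at the bottom, with Asns at a mean of 0.605 TPM.

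How far a gene ranged over the 32 livers differed widely within the list. Among the chaperones, the highest library was 7.15 times the lowest for Hyou1, 5.12 times for Hspa5 and 1.68 times for Canx (CPM). Among the small proteins this ratio was 7.86 for Creld2, 7.39 for Sdf2l1 and 7.25 for Manf. Edem1 and Derl1, which act in ERAD, were the steadiest, with ratios of 1.48 and 1.58. Pdia6 ranged 23.3-fold, from 27 to 719 counts, and the estimate for its main protein-coding transcript varied between 0 and 635 counts among libraries. Its values are uncertain.

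Sex was the factor for which most genes of the list were called. Averaged over genotype and diet, 24 of the 33 genes were lower in females than in males and 0 were higher (edgeR quasi-likelihood test, adjusted p under 0.05), where 15.6% of all 13539 genes tested were lower. The log2 fold change was below 0 for all 33, with a median of −0.39 against 0.02 over all genes. The genes that fell included 4 of the 5 chaperones, all 3 HSP40 cochaperones, all 3 small proteins, all 6 sensors and transcription factors, 5 of the 7 ERAD and translocation genes, 2 of the 4 disulfide isomerases and 1 of the 5 PERK and ATF4 branch targets. Without the 4 libraries with acinar transcripts 23 fell and 0 rose. These 23 include Asns, which in that fit passed the count filter only through males, so its call there is no evidence. The share over all genes in that fit is not given here. The 8 hepatocyte markers, all detected in both sexes, summed to 61629 to 99175 CPM in females (median 79064) and 45553 to 94686 CPM in males (median 67994). The 10 macrophage markers summed to 371 to 767 CPM in females (median 484) and 317 to 577 CPM in males (median 430). The 10 plasma cell and B cell markers summed to 13.3 to 189 CPM in females (median 21.4) and 9.68 to 29.0 CPM in males (median 13.2), with the highest sum in WT female replicate 1 on the CD, and the 8 stellate cell and fibroblast markers had a median of 415 CPM in females and 342 CPM in males. The part of these cell types in the result was not tested.

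**Figure D2:**
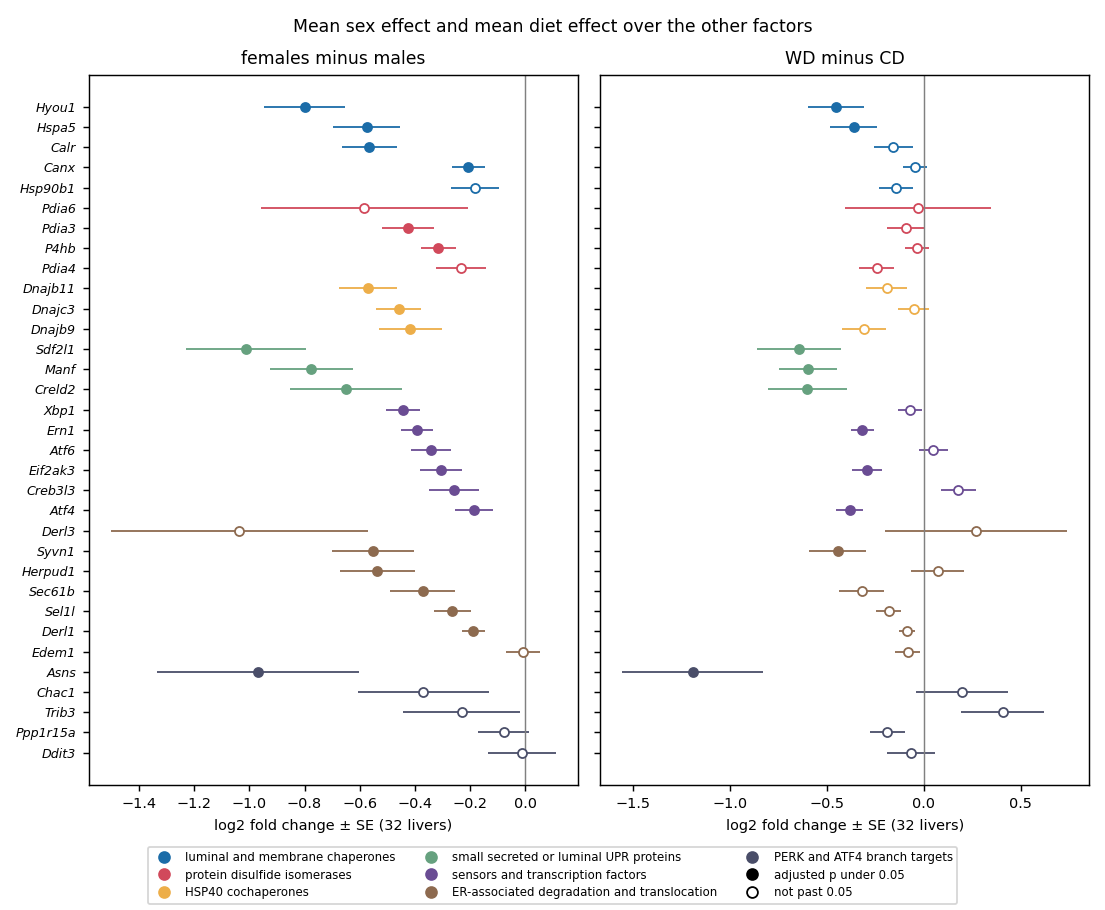
Log2 fold change with its standard error for each gene, females minus males on the left and WD minus CD on the right, each from the model of 32 livers, with filled points for adjusted p under 0.05. All 33 points lie below 0 for sex and 27 of 33 for diet, with 24 and 10 filled.

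Among the chaperones, Hspa5 (ENSMUSG00000026864, chr2:34771970-34777547, GRCm38) had 362 to 1027 (median 579) CPM in the 16 females and 589 to 1853 (median 846) CPM in the 16 males, a log2 fold change of −0.57 ± 0.12 (adjusted p = 0.000586). Hyou1 (GRP170), the exchange factor and cochaperone of BiP, had 64.9 to 280.2 (median 128) CPM in females and 134 to 464 (median 218) CPM in males, with −0.80 ± 0.15 on the log2 scale (adjusted p = 0.000124). Females were lower in the middle of their range for both genes, but the ranges overlapped. Calr changed by −0.56 ± 0.10 (adjusted p = 7.05e-05). Canx (calnexin), with 359 to 498 (median 419.7) CPM in females and 385 to 605 (median 473) CPM in males, changed by only −0.21 ± 0.06 (adjusted p = 0.0111). Hsp90b1 was the chaperone that did not pass, at −0.18 ± 0.09 (adjusted p = 0.109).

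In the fits of single pairs more genes were called on the WD, where 9 of 32 genes were lower in females in WT mice (4.82% of all genes tested were lower) and 9 of 32 in KO mice (5.44% of all were lower). Calr, Dnajb11, Dnajc3 and Hyou1 were among the 9 in both genotypes. Hspa5 had 625, 559, 560.2 and 556 CPM in WT females and 968, 964, 681 and 869 CPM in WT males fed the WD, so that every female was below every male (−0.58 ± 0.13, adjusted p = 0.0162). Hyou1 had 130.2, 97.3, 117 and 137 CPM in the same females and 213, 227, 169 and 221 CPM in the same males, again without overlap (−0.77 ± 0.13, adjusted p = 0.00455). In KO mice fed the WD, Calr had 584, 413, 489 and 619.5 CPM in females and 770.3, 751, 1181 and 859.7 CPM in males (−0.76 ± 0.18, adjusted p = 0.0213). These Calr values also did not overlap, whereas those of WT mice did. Xbp1 and Hyou1 in WT mice and Atf6 in KO mice kept these calls whichever liver was left out, and the other genes did not. In the model of all 32 livers, however, Hyou1 in WT mice lost its call, as did Hspa5, Manf, Dnajb11 and Sel1l. With length offsets in edgeR, Calr, Dnajb11, Dnajc3 and Sel1l lost theirs in WT mice. Hspa5 in WT mice lost its call without female replicate 3, Calr in WT mice without female replicate 1 or 3 or male replicate 1, 2 or 3, Hyou1 in KO mice without female replicate 3, and Calr in KO mice without female replicate 2 or 3 or male replicate 3. The counts rest on few mice. In WT mice the 9 fell to 2 without female replicate 3, to 4 without female replicate 1 or male replicate 1 and to 5 without male replicate 2, and in KO mice to 2 without female replicate 2 or 3 and to 4 without female replicate 1 or male replicate 3, while 14 were called without female replicate 4.

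On the CD fewer genes were called in these fits. In KO mice, 2 of 32 (Xbp1 and Ern1) were lower in females (3.22% of all genes tested were lower), and in WT mice 0 of 32 were called (2.24% of all genes tested were called in either direction). In WT mice 6 of the 32 had an unadjusted p under 0.05 (1880 of all 12505 genes tested had), of which 5 were lower in females and 1 higher. DESeq2 called 1, and its share over all genes is not given here. The WT count was 1 without female replicate 2, an acinar library. The KO count was 4 without male replicate 1 and 1 without female replicate 2, and without female replicate 3, an acinar library, 3 were lower and 1 higher. In the model of all 32 livers this order turned round in KO mice, with 9 of 33 lower in females on the CD and 7 on the WD, while in WT mice 2 were lower on the CD and 5 on the WD. The shares over all genes for these pairs in that model are not given here, so these counts show only that the order depended on the fit. Whether the sex difference depends on diet was tested directly as the WD effect in females minus that in males, and 0 of 33 genes were called (0.244% of all were). By edgeR 4 of the 33 had an unadjusted p under 0.05 (1591 of all 13539 genes tested had), and DESeq2 called 0.

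**Figure D3:**
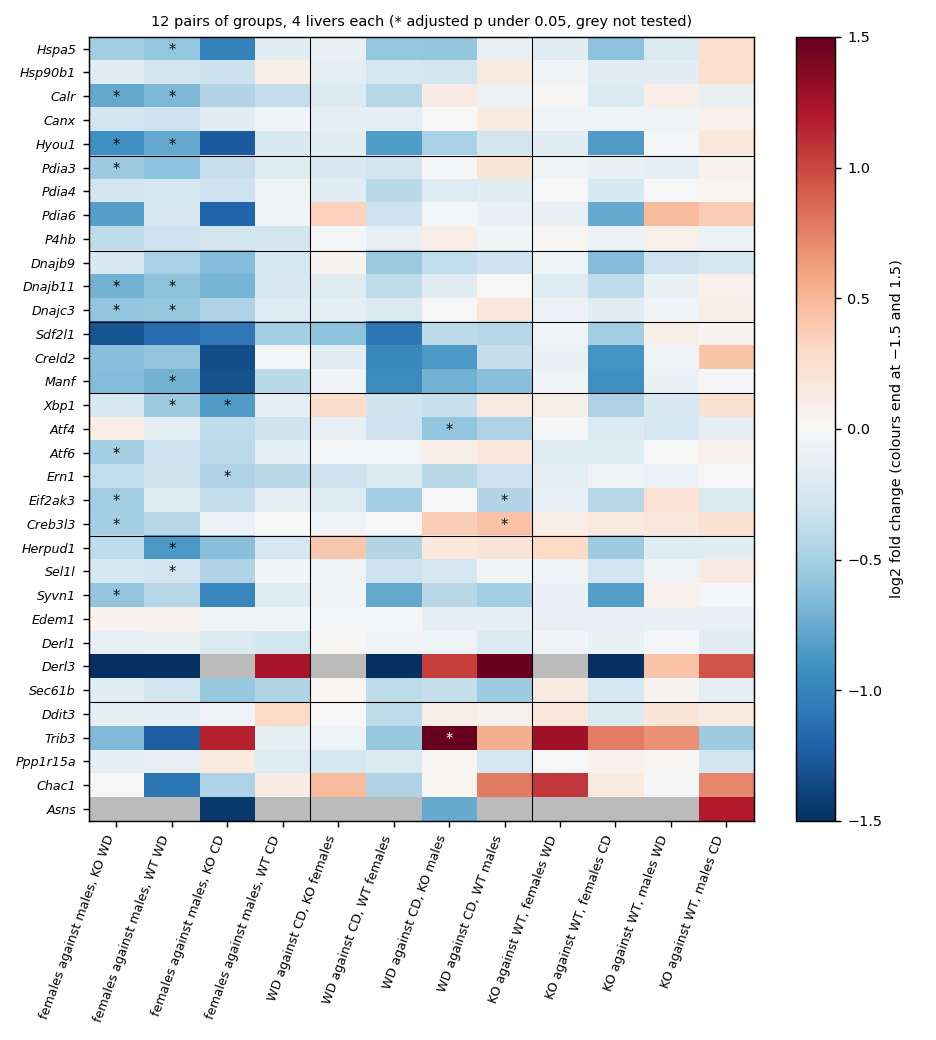
Log2 fold change of each gene (rows, by role) in each of the 12 pairs of groups (columns, 4 livers a group), with an asterisk for adjusted p under 0.05 and grey for genes not tested. The 4 columns of females against males on the left hold 20 of the 24 asterisks, all on the blue (lower) side, and the 4 columns of KO against WT on the right hold 0.

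All 3 HSP40 cochaperones of BiP were lower in females. Dnajb11 (ERdj3), which delivers unfolded proteins to BiP, had 61.8, 44.3, 49.3 and 76.4 CPM in KO females and 90.6, 83.2, 116 and 86.1 CPM in KO males fed the WD, with no overlap (−0.70 ± 0.17, adjusted p = 0.03). This call was lost without female replicate 1, 2 or 3 or male replicate 1 or 3. Dnajc3 (p58IPK), a cochaperone that also restrains PERK, had 208, 177, 191 and 233 CPM in those females and 278, 304, 357 and 276 CPM in those males (−0.59 ± 0.13, adjusted p = 0.0133). All 4 females were again below all 4 males, but the call was lost without female replicate 2 or 3. Dnajb9 (ERdj4), which represses IRE1 through BiP, was called only in the mean sex effect, with 42.6 to 104 (median 58.1) CPM in females and 56.9 to 136 (median 71.9) CPM in males (−0.42 ± 0.11, adjusted p = 0.00645).

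Of the disulfide isomerases, 2 of 4 were lower in females. Pdia3 had 323, 253, 279 and 367 CPM in KO females and 389.5, 423, 538 and 424 CPM in KO males fed the WD, where all females were below all males (−0.54 ± 0.15, adjusted p = 0.0393). This call was lost without female replicate 1, 2 or 3 or male replicate 3 or 4, in the model of all 32 livers, in edgeR with length offsets and with replicate number as a block. P4hb had 879 to 1229 (median 1079) CPM in all females and 1014 to 1602 (median 1311) CPM in all males (−0.31 ± 0.06, adjusted p = 0.000247). Pdia4 (ERp72) did not pass (−0.23 ± 0.09, adjusted p = 0.0529), nor did Pdia6 (−0.58 ± 0.38, adjusted p = 0.247).

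The small proteins, all 3 lower in females, had mean sex effects of −0.65 to −1.01 on the log2 scale. Manf (ENSMUSG00000032575, chr9:106838312-106891979), a secreted factor that also binds BiP, had 56.3, 49.8, 53.2 and 41.1 CPM in WT females and 91.7, 91.6, 57.8 and 90.9 CPM in WT males fed the WD (−0.71 ± 0.16, adjusted p = 0.0187). The highest female lay just under the lowest male, and the call was lost without female replicate 2 or 3 or male replicate 1 and in the model of all 32 livers. Sdf2l1, part of the BiP and ERdj3 chaperone complex, had 7.12 to 27.3 (median 13.4) CPM in females and 8.21 to 52.6 (median 26.4) CPM in males, with a mean sex effect of −1.01 ± 0.22 (adjusted p = 0.000868), and Creld2 had 9.68 to 42.5 (median 15) CPM in females and 12.2 to 76.0 (median 22.4) CPM in males (−0.65 ± 0.20, adjusted p = 0.0164). For both genes the ranges of the sexes overlapped, and neither was called in any single pair.

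All 6 sensors and transcription factors were lower in females on average, with the smallest adjusted p of the 33 genes for Xbp1 (1.68e-06) and Ern1 (6.41e-06). Xbp1 (ENSMUSG00000020484, chr11:5520659-5525893) had 96.7, 119, 128 and 106 CPM in KO females and 182, 216, 214 and 192 CPM in KO males fed the CD (−0.84 ± 0.12, adjusted p = 0.00125), and 114, 137, 134 and 119.9 CPM in WT females and 187, 175, 195 and 188 CPM in WT males fed the WD (−0.55 ± 0.09, adjusted p = 0.00327). Neither pair overlapped. In the other 2 pairs it changed by −0.23 ± 0.14 (KO, WD, adjusted p = 0.344) and −0.14 ± 0.13 (WT, CD, adjusted p = 0.673). The total cannot be split into the spliced and unspliced forms, because none of the 4 annotated Xbp1 transcripts carries the short cytosolic splice. Xbp1-201 took 85.3% to 95.1% of the Xbp1 counts in every library.

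Ern1 (ENSMUSG00000020715, chr11:106394650-106487852), the sensor that splices Xbp1, had 89.5, 88.2, 89.5 and 94.0 CPM in KO females and 141, 110.4, 122 and 124 CPM in KO males fed the CD, with no overlap (−0.46 ± 0.10, adjusted p = 0.0179). This call was lost without female replicate 2 or male replicate 1, and with length offsets in edgeR or DESeq2. Atf6, the precursor of the cleaved factor, had 69.1, 60.5, 69.8 and 79.6 CPM in KO females and 102, 100.4, 94.4 and 95.2 CPM in KO males fed the WD (−0.50 ± 0.10, adjusted p = 0.00839). Eif2ak3 had 12.1, 15.5, 13.5 and 17.5 CPM in those females and 24.5, 19.6, 19.5 and 20.5 CPM in those males (−0.52 ± 0.13, adjusted p = 0.0247). In each of these comparisons all females were below all males, and Eif2ak3 lost its call without female replicate 1, 2 or 3 or male replicate 1. Eif2ak3 also lost it in edgeR with length offsets and with replicate number as a block. Creb3l3 had 180.3, 141, 136 and 183 CPM in those females and 199.8, 194, 241 and 266 CPM in those males, where the highest female lay under the lowest male (−0.50 ± 0.14, adjusted p = 0.0478). This call was lost without female replicate 1, 2 or 3 or male replicate 3 or 4, in the model of all 32 livers and with replicate number as a block. The smallest mean sex effects of the group were those of Creb3l3 (−0.26 ± 0.09, adjusted p = 0.0288) and Atf4 (−0.18 ± 0.07, adjusted p = 0.0416). Creb3l3 lost this call when any of 4 single libraries was left out. Atf4 lost it without the acinar libraries (adjusted p = 0.0731) and when any of 15 single libraries was left out. The Atf4 call was also lost with length offsets in edgeR and with no filter.

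In ERAD, Herpud1 (HERP), a membrane organiser of the degradation complex, had 104, 134, 99.6 and 124 CPM in WT females and 137, 272, 216 and 222 CPM in WT males fed the WD (−0.86 ± 0.19, adjusted p = 0.0199). Sel1l, the adaptor of the ubiquitin ligase HRD1, had 166, 159.8, 159 and 156 CPM in those females and 194, 204, 197 and 192 CPM in those males (−0.28 ± 0.07, adjusted p = 0.0383). The values of neither gene overlapped. The Sel1l call was lost without any one of these livers but female replicate 4, in the model of all 32 livers, in edgeR with length offsets and with no filter, and that of Herpud1 without female replicate 1 or 3 or male replicate 3 or 4. Syvn1, which encodes HRD1 itself, had 40.9, 32.3, 45.0 and 56.2 CPM in KO females and 73.5, 56.7, 67.3 and 65.2 CPM in KO males fed the WD (−0.60 ± 0.15, adjusted p = 0.0318). This call was lost without any one of these livers but female replicate 4 or male replicate 2, and in the model of all 32 livers. Derl1 (a channel component, 100.4 to 128 (median 113) CPM in females and 109 to 159 (median 128) CPM in males) and Sec61b (a subunit of the translocon, 20.8 to 52.2 (median 28.9) CPM in females and 22.3 to 64.8 (median 37.2) CPM in males) had mean sex effects of −0.19 ± 0.04 (adjusted p = 0.000962) and −0.37 ± 0.12 (adjusted p = 0.0167). Edem1, which directs misfolded glycoproteins to degradation, had a mean sex effect of −0.01 ± 0.06 (adjusted p = 0.942), and Derl3 −1.04 ± 0.47 (adjusted p = 0.0906).

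Of the PERK and ATF4 branch targets, 1 of 5 was called for sex. Asns (asparagine synthetase) was that gene, with 0.120 to 2.77 (median 0.221) CPM in females and 0.192 to 2.52 (median 0.797) CPM in males (−0.97 ± 0.37, adjusted p = 0.0429). Its highest female values, 2.77 and 1.46 CPM, were those of the 2 libraries with the most acinar transcripts, and these were the only females with at least 10 counts. Without the 4 acinar libraries its sex effect was −1.93, but there Asns passed the count filter only through males. A call of lower values in females then follows from the filter and is no evidence of a sex difference. With these 4 libraries kept, the call was lost when any of 20 single libraries was left out. It was also lost with no filter and with length offsets in edgeR or DESeq2. Ddit3, Ppp1r15a, Trib3 and Chac1 had mean sex effects of −0.01, −0.08, −0.23 and −0.37 on the log2 scale, none past the threshold.

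Fewer genes were called for diet. Averaged over sex and genotype, 10 of the 33 genes were lower on the WD than on the CD and 0 were higher, where 10.8% of all genes tested were lower. The median log2 fold change of the 33 was −0.16 against −0.01 over all genes. The 10 were the 3 small proteins, the sensors Ern1 and Eif2ak3 with Atf4, the chaperones Hspa5 and Hyou1, Syvn1 and Asns. Without the 4 acinar libraries, of which 3 are from the CD, 4 of 33 were called (Atf4, Ern1, Manf and Eif2ak3), where 1237 of all 13361 genes tested were lower. That count is near the share over all genes, so without these libraries it is no result about the list. The hepatocyte marker sum had a median of 65657 CPM on the WD and 84288 CPM on the CD, and the macrophage marker sum ranged from 317 to 767 CPM on the WD (median 535) and from 323 to 537 CPM on the CD (median 441), and their part in the result was not tested. The count was also 5 without KO male replicate 4 on the CD and 6 without WT male replicate 3 on either diet, KO female replicate 4 on the CD or KO female replicate 2 on the WD.

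Atf4 (ENSMUSG00000042406, chr15:80255184-80257541) had 59.1 to 99.3 (median 72.2) CPM in the 16 livers on the WD and 66.1 to 149 (median 96.0) CPM in the 16 on the CD (−0.38 ± 0.07, adjusted p = 0.000285). Ern1 had 59.2 to 112 (median 89.4) CPM on the WD and 80.6 to 141 (median 107) CPM on the CD (−0.32 ± 0.06, adjusted p = 0.000377). Both kept their call in every alternative run on the mean WD effect. Manf had 36.6 to 99.6 (median 58.0) CPM on the WD and 25.8 to 187 (median 94.9) CPM on the CD (−0.60 ± 0.15, adjusted p = 0.00612), and Eif2ak3 had a mean WD effect of −0.29 ± 0.08 (adjusted p = 0.0063). Hspa5, with 415 to 968 (median 653) CPM on the WD and 362 to 1853 (median 805) CPM on the CD, changed by −0.36 ± 0.12 (adjusted p = 0.0358) and by −0.34 (adjusted p = 0.104) without the acinar libraries. Without them Hyou1 changed by −0.42 in place of −0.45, Sdf2l1 by −0.64 in place of −0.64, Creld2 by −0.47 in place of −0.60 and Syvn1 by −0.39 in place of −0.44, and none of these 4 passed. Hspa5 and these 4 genes also lost their calls with no filter on low counts, and when single libraries were left out. These were any of 17 for Creld2 and for Sdf2l1, any of 13 for Hspa5 and for Syvn1 and any of 2 for Hyou1. The calls of Sdf2l1 and Syvn1 were also lost with length offsets in edgeR, and that of Sdf2l1 with replicate number as a block. Asns changed by −1.19 ± 0.36 with all libraries (adjusted p = 0.0207) and by −0.32 without these 4 (adjusted p = 0.52).

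In single groups, few of the genes were called for diet. WT males had 2 of 32 (13.7% of all genes tested were called), KO males 2 of 33 (2.6%), WT females 0 of 32 (0.0785%) and KO females 0 of 31 (0.125%). Creb3l3 (ENSMUSG00000035041, chr10:81084324-81098874) was higher on the WD in WT males, with 176, 230.4, 195 and 209 CPM on the WD and 171, 138, 160.3 and 137 CPM on the CD, where all WD livers exceeded all CD livers (0.43 ± 0.11, adjusted p = 0.0262). Eif2ak3 was lower in the same mice, at 14.7, 21.5, 16.9 and 19.7 CPM on the WD and 29.4, 23.8, 25.2 and 21.9 CPM on the CD (−0.44 ± 0.13, adjusted p = 0.0457). Both passed narrowly. Both calls were lost without CD replicate 2, 3 or 4 or WD replicate 3 or 4. Creb3l3 also lost its call without WD replicate 2, and Eif2ak3 without CD replicate 1 or WD replicate 1. With replicate number as a block both calls were lost. Creb3l3 also lost its call in the model of all 32 livers, and Eif2ak3 in edgeR with length offsets. The count of genes called was 0 without CD replicate 3 or 4 or WD replicate 3 or 4 and 1 without CD replicate 1 or WD replicate 2.

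In KO males, Trib3 (ENSMUSG00000032715, chr2:152337422-152344032), a pseudokinase induced by ATF4 and CHOP that restrains AKT signalling, had 5.74, 6.29, 6.88 and 12.9 CPM on the WD and 2.51, 2.32, 2.22 and 2.42 CPM on the CD. This was the largest change of any pair called, at 1.76 ± 0.27 on the log2 scale (adjusted p = 0.00678), with no overlap and with a call in every setting run. Atf4 moved the other way in the same mice, with 72.2, 72.3, 65.6 and 59.1 CPM on the WD and 115, 103, 97.0 and 95.3 CPM on the CD (−0.59 ± 0.10, adjusted p = 0.0139). It lost its call without WD replicate 3 or 4. In the other groups Trib3 changed by 0.55 (WT males), −0.06 (KO females) and −0.57 (WT females) between the diets, none past the threshold. The difference of its WD effect between females and males was −1.45 ± 0.43 (adjusted p = 0.164).

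In WT females all 32 genes tested had log2 fold changes below 0 on the WD. Their median was −0.38, against −0.003 over all genes. Of them 15 had an unadjusted p under 0.05 by edgeR (1078 of all 12737 genes tested had), but edgeR called 0. DESeq2 called 4, but its share over all genes is not given here, so the 4 are not read as a result about the list. Manf came closest, with 56.3, 49.8, 53.2 and 41.1 CPM on the WD and 95.9, 107, 71.5 and 114 CPM on the CD (−0.96 ± 0.16, adjusted p = 0.0604). All WD livers were below all CD livers. Of these 8 libraries 3 are among the 4 with acinar transcripts, and without them 8 genes had an unadjusted p under 0.05 and 0 were called. Neither the count over all genes nor the signs of the listed genes in that fit are given here. In KO females 2 of 31 had an unadjusted p under 0.05 (1268 of all 12840 genes tested had), both lower on the WD, and neither edgeR nor DESeq2 called any.

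**Figure D4:**
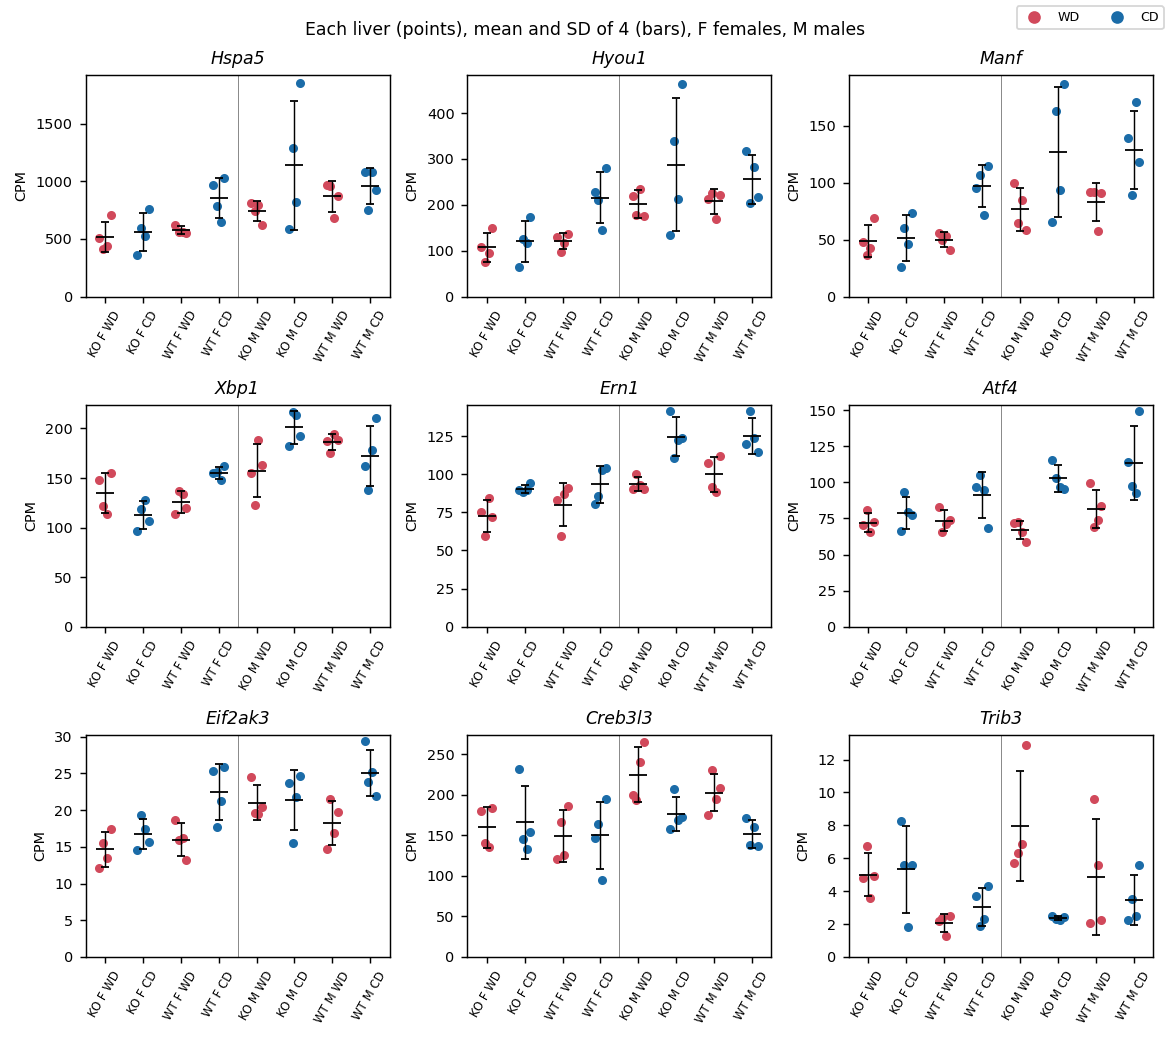
CPM of 9 of the genes in each liver (points, red WD and blue CD), with the mean and SD of 4 livers, females left of the line and males right of it. Hspa5, Hyou1 and Manf average lower in females than in males of the same genotype and diet. The sexes overlap on the CD and, for Hspa5 and Manf in KO mice, also on the WD. The 4 KO males on the CD spread from 589 to 1853 CPM for Hspa5.

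No gene of the list was called for genotype. The mean KO effect called 0 of 33 (0.0886% of all genes tested were called). An unadjusted p under 0.05 was found for 4 by edgeR (and for 1231 of all 13539 genes), with 0 called by DESeq2. KO against WT called 0 of 33 in males on the CD (0.00814% of all were called), 0 of 32 in males on the WD (0.0162%), 0 of 32 in females on the CD (0.0314%) and 0 of 31 in females on the WD (0.0156%). These pairs had 1, 0, 11 and 2 genes with an unadjusted p under 0.05, and DESeq2 called 0 in each. In the same order, 1197 of 12289, 1194 of 12319, 876 of 12753 and 981 of 12824 of all genes tested had such a p. All 11 in females on the CD were lower in KO mice. There Manf had 25.8, 60.1, 46.1 and 73.1 CPM in KO females and 95.9, 107, 71.5 and 114 CPM in WT females (−0.92 ± 0.29, adjusted p = 0.697), and Hspa5 had 362, 598, 524 and 764 CPM in KO females and 965, 787, 651 and 1027 CPM in WT females (−0.61 ± 0.22, adjusted p = 0.701). The groups overlapped for both genes. Of these 8 libraries 3 are among those with acinar transcripts, and without them 5 genes had an unadjusted p under 0.05 and 0 were called. The count over all genes in that fit is not given here.

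In the mean KO effect Dnajb9 had the smallest adjusted p of the list, with 42.6 to 127 (median 62.9) CPM in KO livers and 50.1 to 136 (median 75.9) CPM in WT livers (−0.32 ± 0.11, adjusted p = 0.382). It was followed by Trib3, with 1.82 to 12.9 (median 5.26) CPM in KO livers and 1.27 to 9.61 (median 2.42) CPM in WT livers (0.54 ± 0.21, adjusted p = 0.445). Neither passed, and the ranges of the genotypes overlapped for both. The WD effect in KO minus that in WT called 0 of the 33 and 0 of all genes (0%), by edgeR, and DESeq2 called 0 of the 33. Of the 33 genes 1 had an unadjusted p under 0.05 (1141 of all 13539 genes tested had), Eif2ak3 at 0.37 ± 0.15 (adjusted p = 0.513 by edgeR).

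A total of 8 genes were not called in any of the 17 comparisons, namely Hsp90b1, Pdia4, Pdia6, Edem1, Derl3, Ddit3, Ppp1r15a and Chac1. Hsp90b1 averaged 804 ± 63.2 CPM in KO females and 825 ± 32.3 CPM in WT females on the WD (SD, n = 4 each), and 884 ± 61.0 CPM in KO females and 988 ± 114 CPM in WT females on the CD. Its means in males were 902 ± 129 CPM in KO and 1020.4 ± 197 CPM in WT on the WD, and 1108 ± 432 CPM in KO and 937 ± 31.5 CPM in WT on the CD. The SD of KO males on the CD exceeded every difference between these means.

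Pdia4 averaged 199.8 ± 20.1 CPM in KO females and 199 ± 21.0 CPM in WT females on the WD, and 225 ± 23.1 CPM in KO females and 263 ± 50.3 CPM in WT females on the CD. In males it averaged 240.2 ± 32.5 CPM in KO and 242 ± 37.9 CPM in WT on the WD, and 279 ± 113 CPM in KO and 276 ± 10.1 CPM in WT on the CD. It came near the threshold for sex (adjusted p = 0.0529) and for diet (adjusted p = 0.0587). Edem1 averaged 252 ± 10.0 CPM in KO females and 271 ± 37.6 CPM in WT females on the WD, and 256 ± 41.2 CPM in KO females and 276 ± 32.5 CPM in WT females on the CD. In males it averaged 242 ± 35.3 CPM in KO and 262 ± 29.1 CPM in WT on the WD, and 267 ± 35.7 CPM in KO and 290.4 ± 25.2 CPM in WT on the CD, so that all 8 means lay close together.

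Ddit3, whose product promotes cell death under lasting stress, averaged 5.98 ± 0.657 CPM in KO females and 5.29 ± 1.35 CPM in WT females on the WD, and 5.98 ± 1.00 CPM in KO females and 6.89 ± 1.63 CPM in WT females on the CD. In males it averaged 6.57 ± 1.53 CPM in KO and 5.85 ± 1.04 CPM in WT on the WD, and 6.29 ± 2.96 CPM in KO and 5.66 ± 1.48 CPM in WT on the CD. The remaining genes of this branch ranged over the 32 livers from 5.7 to 13.3 CPM (Ppp1r15a, which restores translation by dephosphorylating eIF2α) and from 0.52 to 4.28 CPM (Chac1, which degrades glutathione). Pdia6 ranged from 2.56 to 59.7 CPM and Derl3 from 0 to 5.72 CPM.

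Within groups, many of the folding genes varied with Hspa5 from liver to liver. After subtraction of the group means on the log2(CPM + 0.5) scale, deviations over the 32 libraries correlated with those of Hspa5 at r = 0.95 for Hyou1, 0.93 for Manf, 0.89 for Creld2, 0.85 for Dnajb11, 0.81 for Sel1l and 0.80 for Pdia4, and 9 genes exceeded 0.7. For Ern1 (r = −0.11), Trib3 (−0.09), Ppp1r15a (−0.12), Chac1 (−0.20) and Atf4 (−0.02) it was below 0, and for Creb3l3 it was 0.15. These are descriptions of libraries that also share depth and tissue makeup. Without the 4 acinar libraries r was 0.96 for Hyou1, 0.95 for Manf and 0.90 for Creld2. The median r between pairs of genes was 0.73 among the 5 chaperones and −0.07 among the 6 sensors and transcription factors.

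The widest spread was that of KO males fed the CD. Replicate 4 was the highest of its 4 mice for 21 of the 33 genes and replicate 1 the lowest for 22. Hspa5 had 589, 1288, 822 and 1853 CPM in these 4 mice, Hyou1 134, 339, 212 and 464 CPM and Manf 65.3, 163, 93.9 and 187 CPM. In the same mice Sdf2l1 had 8.21, 51.9, 14.6 and 52.6 CPM and Creld2 12.2, 45.6, 22.6 and 76.0 CPM, whereas Xbp1 had 182, 216, 214 and 192 CPM and Ern1 141, 110.4, 122 and 124 CPM. Hspa5, Hyou1 and the small proteins thus ranged several-fold in mice whose Xbp1 and Ern1 values were close, whereas the chaperone Canx had 385, 509, 459.7 and 605 CPM. In KO females fed the WD replicate 4 was the highest for 25 of the 33, and in WT females fed the CD replicate 4, one of the acinar libraries, for 22. How often these libraries were the highest or lowest over all genes is not given here, so the counts describe only the list.

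**Figure D5:**
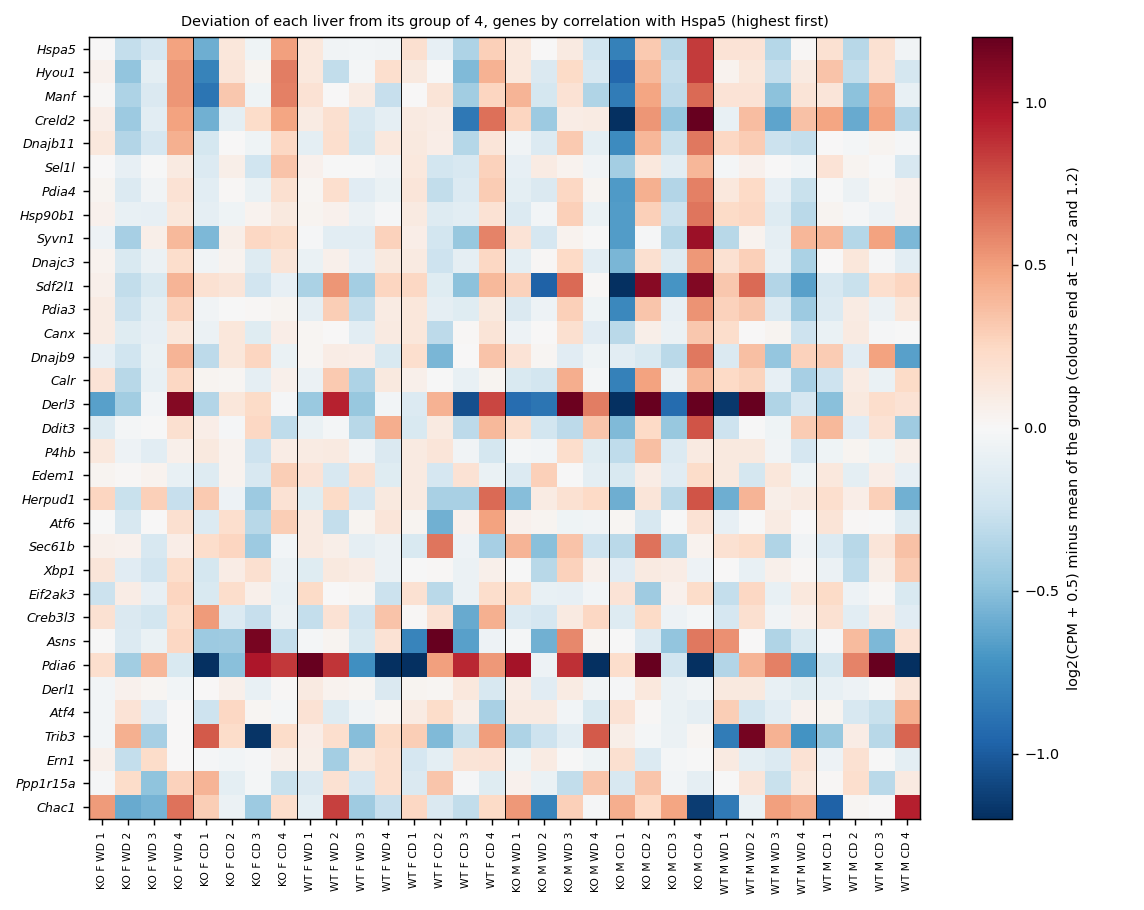
Deviation of each liver (columns, 4 a group) from the mean of its group on the log2(CPM + 0.5) scale for each gene (rows, ordered by correlation with Hspa5). The top rows share their colours within a column, most clearly in KO males on the CD, while the lowest rows, from Atf4 down to Chac1 (r = −0.20), do not follow them.

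The 11 genes with ERSE or ERSE-II in the promoter window had a median mean sex effect of −0.56 on the log2 scale, with 8 called, against −0.33 for the other 22, with 16 called. These 22 include 4 genes without a promoter window (Hyou1, Manf, Atf6 and Derl1), which were not searched, so they are not all known to lack the motifs. The 11 genes had a median mean WD effect of −0.14, with 3 called, against −0.18 for the other 22, with 7 called. Both sets spanned wide ranges, from −1.04 to −0.18 and from −1.01 to −0.01 for sex, and this difference between them was not tested.

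Other genes of the same pathways, 107 in all, were described by list. In females against males, 17 of 23 translocation and glycosylation genes, 13 of 23 further folding genes and 9 of 16 further ERAD genes were lower and 0 of each were higher, with medians of −0.26, −0.17 and −0.17, where 15.6% of all genes tested were lower. They included Ssr3, a translocon-associated subunit (−0.52), Sec61a1, the channel of the translocon (−0.38), Uggt1, the folding sensor of glycoproteins (−0.51), and Ero1lb, an oxidase of disulfide isomerases (−1.07). Of 14 other UPR sensors and transducers tested, 7 were lower and 0 higher. Of the 20 further ATF4 targets 5 were higher (among them Vldlr, 2.47) and 4 lower (among them Mthfd2, −1.01), and of 8 CREBH targets 2 were higher and 1 lower. Over all 13539 genes tested 2155 were higher and 2117 lower, so these small counts are near the shares over all genes.

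For diet, 10 of 23 folding genes, 10 of 23 translocation and glycosylation genes and 5 of 16 ERAD genes were lower on the WD and 0 of each were higher, with medians of −0.17, −0.19 and −0.05, where 10.8% of all genes tested were lower. They included Sdf2, the paralog of Sdf2l1 (−0.22), Pdia5 (−0.32), Rpn1, a subunit of the oligosaccharyltransferase (−0.35), and Edem2 (−0.30). The fit behind these counts keeps the libraries with acinar transcripts, most of which are from the CD. Counts of these lists without those libraries are not given here. The part of acinar transcripts in the lower values on the WD was not tested. Among the transducers Wfs1 was lower (−0.48), as was Atf6b (−0.24), while Creb3l1 was higher (0.56). Of the ATF4 targets 2 of 20 were lower (Slc7a5 and Nupr1) and 0 higher, near the share over all genes, and of the CREBH targets Cidec was higher (1.86) and Apcs lower (−0.37). In the mean KO effect 0 genes of these lists were called.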

How the data were processed

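The deposited files hold, for each of 117135 transcripts of mouse GRCm38, the expected count and the TPM that the authors estimated with Salmon 1.3.0 (decoy-aware index, 50 bp paired reads, KAPA mRNA kit). The authors tested these counts with DESeq2 1.28.1. Of the transcripts, 115973 had a gene in GENCODE vM21, and their counts were summed per gene and rounded. Counts without a gene were 0.315% to 0.424% of a library. Each of 12 pairs of groups (at least 10 counts in at least 4 of 8 libraries) and 5 contrasts of a 32-library model (at least 10 counts in at least 4 libraries) were tested with edgeR 4.0.16 in R 4.3.3 (TMM, robust quasi-likelihood F test). P-values were adjusted over all genes by Benjamini and Hochberg, with a threshold of 0.05. CPM uses TMM factors, and errors of log2 fold changes are standard errors. Whether counting used strand is not given in the sources used here, so reads of Manf, Syvn1, Ddit3, Hsp90b1 and Eif2ak3 may include those of overlapping antisense genes, and Dnajb9, Derl1 and Sec61b share sequence with pseudogenes. The fit was tested on simulated data. The alternatives were RLE size factors, edgeR and DESeq2 1.42.0 with length offsets, no filter, a replicate block, the 32-library model for pairs, and leaving out each library. Every gene called in a pair or contrast is given with its values in a comparison that calls it (lowest, median and highest for 16 against 16), uncalled genes with the highest TPM of their role with group means, and genes of other lists only where called. The genes and lists were chosen with earlier results of these data known. P-values measure the spread between these mice.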

Additional observations from a re-analysis of the deposited data

Results flagged for a closer look

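In 10 of 264 groups of 4 livers (3.79%), 1 liver stood far from the other 3 for a gene of the list by Dixon's ratio at the 95% level, which chance gives in about 1 of 20 groups. Of the high values, Hspa5 had 625 CPM in WT female replicate 1 on the WD, against 556 to 560.2 CPM in the others of its group. Dnajb9 had 127 CPM in KO male replicate 4 on the CD, against 65 to 74.5 CPM, and this mouse was the highest of its group for 21 of the 33 genes. Trib3 had 12.9 CPM in KO male replicate 4 on the WD, against 5.74 to 6.88 CPM. Derl3 had 5.70 CPM in WT male replicate 2 on the WD, against 0.342 to 1.13 CPM. Asns had 2.77 CPM in WT female replicate 2 and 1.46 CPM in KO female replicate 3 on the CD, against at most 0.591 and 0.231 CPM in the others, and these 2 libraries had the highest summed levels of acinar genes, 7244 and 3341 CPM.

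Of the low values, Manf had 57.8 CPM in WT male replicate 3 on the WD, against 90.9 to 91.7 CPM in the others. Dnajb11 had 67.0 CPM in WT female replicate 3 on the CD, against 90.1 to 94.2 CPM. Sec61b had 25.6 CPM in KO female replicate 3 on the WD, against 30.2 to 30.8 CPM, and Derl3 had 0.347 CPM in WT male replicate 1 on the CD, against 0.806 to 0.889 CPM.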

How the results depend on the processing

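No alternative reversed the direction of any of the 58 calls of a gene in a comparison. RLE size factors kept all 58, DESeq2 with length offsets 56, the fit with the replicate block 52, no filter 50 and edgeR with length offsets 46. The 32-library model kept 15 of the 24 calls made in pairs, and leaving out 1 library kept 1099 of 1280. Counts of genes called moved by over 1.5 times in these cases. The mean WD effect called 5 in place of 10 with no filter and 4 without the 4 acinar libraries, a setting chosen after seeing the data. Diet in WT males called 0 with the replicate block and 1 with edgeR length offsets in place of 2, and diet in WT females 4 in place of 0 by DESeq2 and 1 with no filter. Females against males in WT mice called 2 in place of 0 on the CD in the 32-library model and 1 by DESeq2, and 5 in place of 9 on the WD in the 32-library model and 5 with edgeR length offsets. In KO mice on the CD the 2 became 9 in the 32-library model, 1 with edgeR length offsets, 5 by DESeq2, 5 with the replicate block and 4 without the acinar libraries, of which 1 was higher in females. In KO mice on the WD the 9 became 15 by DESeq2. Except for the mean WD effect without the acinar libraries, the shares over all genes in these fits are not given here. These counts therefore show only how the calls moved with the fit. The cause of these shifts was not tested.

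Leaving out 1 library gave 5 to 14 genes for the mean WD effect, 21 to 26 for the mean sex effect, 0 to 2 for diet in WT males, 1 to 2 for diet in KO males, 0 to 1 for sex in WT mice on the CD, 2 to 12 in WT mice on the WD, 1 to 4 in KO mice on the CD and 2 to 14 in KO mice on the WD, and 0 in the other 9 comparisons. Replicate numbers did not pair the mice: deviations from the group means correlated at a mean of r = 0.0094 between libraries of 1 number and −0.0026 between others, so the replicate block groups mice that share only a number. No 2 libraries were duplicates. Asns and Derl3, with few counts, are limited by depth, and Pdia6 by its transcript estimates.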
